A study of Mus musculus with 3 samples.

Results

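The acute phase plasma proteins described here are 10 genes chosen by name, Saa1, Saa2, Saa3, Saa4, Hp, Hpx, Orm1, Orm2, Lcn2 and Apcs, out of 20573 named genes on the array. Each was found through the transcript accession of its probe, and each had 1 probe with 1 spot on every array. The question is how far cells turned toward hepatocytes carried these transcripts. RNA was hybridised to 3 one-colour (Cy3) expression arrays, 1 per group, each from a pool of 5 samples of female mice whose strain and age are not given in the sources used here. iHep were hepatocyte-like cells, made from fibroblasts of SiO2-remodelled spleens with the lentivirus LV-3TF, which carries 3 factors that the labels do not name, and were collected at day 14 after transduction. PH were primary hepatocytes taken straight from isolation, without that culture, as a positive control. MF were SiO2-remodelled spleen fibroblasts that had received the control lentivirus LV-NC and were collected at the same day 14. The labels give 1 extraction for all 3 groups, with a blood RNA kit and a step that removes globin messages.

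The acute phase response is the change in plasma proteins that follows infection or injury. Interleukin 6 and interleukin 1 reach the hepatocyte, and STAT3, NF-kB and the C/EBP factors then switch on secreted proteins that bind lipid, haemoglobin, haem, iron carriers or microbial surfaces. The liver is the main source of most of them, although macrophages, fat, epithelia and neutrophils also make some.

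With 1 array per group there was no replicate, so no difference below has a test, and "higher" and "lower" describe these arrays. A level is log2 of the spot's processed signal minus the array's 75th percentile, so 0 is that percentile, and a fold is formed between arrays for 1 probe at a time. The percentile was 3752 on iHep, 2081 on PH and 544 on MF, which makes the MF array the dimmest. The iHep and PH arrays were read in 1 scan and MF in another, so scan and group cannot be told apart in comparisons with MF. Probes printed 10 times gave an SD of 0.12 to 0.13 for the log2 difference of 1 spot, while different probes of a gene differed with an SD of 0.84 to 1.11. The 10 genes have no other probe here, so that larger disagreement could not be checked for them. A gene was counted as different at 2-fold. The counts of each list below stand against the shares of all genes compared. Those were 19.8% higher and 23.5% lower for iHep over MF, and 30.8% and 25.4% for PH over MF. For iHep over PH they were 23.2% higher and 36.0% lower. Where 1 of the arrays was not well above background, the fold is a bound, "at least" N-fold, formed against the dim array's own reading or its lowest level well above background, whichever is higher. Cell identity was read from marker lists. All 15 hepatocyte markers were above background in PH, 12 in iHep and 8 in MF, and all 15 were at least 2-fold lower in iHep than in PH. Of the 12 that could be compared in iHep over MF, 3 were higher, 1 was lower and 8 were within 2-fold. The markers summed to 18.9 in iHep, 785 in PH and 36.1 in MF, in units of the 75th percentile. Most of the iHep and MF sums came from Apoa2, with levels of 3.57 and 4.45, and Ass1, with 2.02 and 3.79. The 2 probes of Apoa2 disagreed, ranging from -3.28 to -0.88 for iHep over MF and from 2.34 to 9.44 for PH over MF. All 12 fibroblast markers were at least 2-fold lower in iHep than in MF, though 10 of the 12 with quantile normalization and in the authors' values. In PH all 12 were above background, with a sum of 97.9, against 77.0 in iHep and 720 in MF. The largest part of the PH sum came from Fn1, fibronectin, with levels of 5.30 in PH, 3.04 in iHep and 6.34 in MF. Against MF, 10 of the 12 markers were lower in PH and 2 higher. PH also gave signal for markers of red cells, macrophages, neutrophils and pancreatic acinar cells, given below.

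All 10 genes were well above background in iHep and in PH, and 5 of them in MF. Saa2, Saa4, Orm1, Orm2 and Apcs were not well above background in MF. In iHep over MF, 4 of the 10 passed 2-fold upward, against 19.8% of all 17171 genes compared, and 1 passed it downward, against 23.5%. The 4 were Lcn2, Hpx, Saa2 and Orm1, and the 1 lower was Hp. In PH over MF all 10 were at least 8-fold higher, against 30.8% of genes past 2-fold and 10.8% past 8-fold, and 0 were lower, against 25.4% of genes past 2-fold. Under another background correction (normexp) Apcs and Saa3 were under 8-fold, at 1.78 and 2.9992 on the log2 scale. In iHep over PH all 10 were at least 2-fold lower, against 36.0% of genes, and 9 were at least 8-fold lower, against 13.1%, while 0 were higher, against 23.2% of genes past 2-fold. In a bulk sample, fewer cells of a type and less RNA per cell cannot be told apart.

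**Figure D1:**
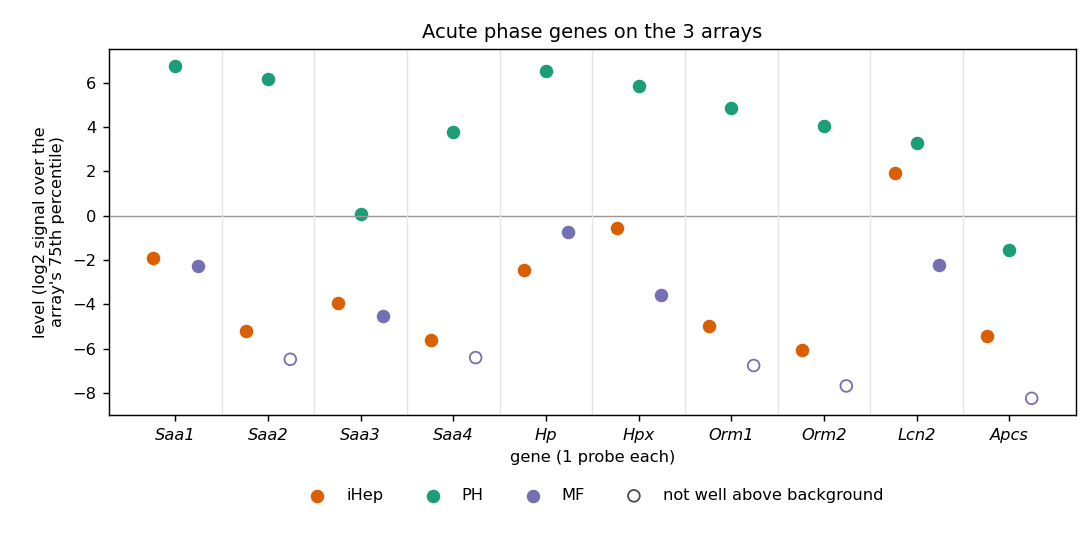
Level of each gene on each array (y axis, log2 signal over the array's 75th percentile; x axis, gene with 1 probe each), with iHep, PH and MF side by side and open circles for readings not well above background. PH is the top point for all 10 genes, iHep lies above MF for 9, and Lcn2 is the gene where iHep sits nearest to PH.

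The serum amyloid A genes encode small apolipoproteins of high-density lipoprotein. Saa1 and Saa2 are the main liver acute phase forms in mice, Saa3 is made largely outside the liver, in macrophages and fat among others, and Saa4 is the constitutive form. RefSeq places Saa3, Saa4, a pseudogene, Saa1 and Saa2 next to each other on chromosome 7. Saa1 had a level of -1.91 in iHep, 6.77 in PH and -2.25 in MF. Its spot read 999 in iHep, 226833 in PH and 114 in MF before scaling. After scaling, the iHep and MF levels lay close together and the PH level far above both. The difference of iHep over MF was 0.34 ± 0.20 on the log2 scale (the software's error of the pair of spots), or 1.27-fold higher, which is under the 2-fold threshold. For bright spots the software's error was close to 10% of the signal whatever the gene, and it is not a spread between replicates. Saa1 was 518-fold higher in PH than in MF and 409-fold lower in iHep than in PH.

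Saa2 had a level of -5.20 in iHep, 6.17 in PH and -6.47 in MF, the MF reading being not well above background. It was at least 2.15-fold higher in iHep than in MF, a bound that became 0.00 on the log2 scale under normexp. Its PH reading exceeded that of MF by at least 5679-fold, and it was 2643-fold lower in iHep than in PH, the largest gap to PH among the 10 genes. Saa1 and Saa2 are near-identical copies, and the probe sequences were not used here, so signal of one on the other's probe cannot be told apart. Their promoters show how alike they are. The RefSeq windows below (GRCm38.p6, 250 bases before to 50 after the gene start, 5′ to 3′ on the gene's strand) matched at 287 of 301 aligned positions, or 95.3%. Capitals mark a match to a C/EBP site pattern, TTNNGCAA on either strand. Saa1 lies at chr7:46742931-46743230 on the minus strand and Saa2 at chr7:46751583-46751882 on the plus strand.
Saa1: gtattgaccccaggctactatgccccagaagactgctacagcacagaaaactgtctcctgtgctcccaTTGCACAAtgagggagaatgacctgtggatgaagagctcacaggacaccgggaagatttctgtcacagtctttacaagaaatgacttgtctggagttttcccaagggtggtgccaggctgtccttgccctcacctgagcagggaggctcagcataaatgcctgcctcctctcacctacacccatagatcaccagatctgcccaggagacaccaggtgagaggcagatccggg
Saa2: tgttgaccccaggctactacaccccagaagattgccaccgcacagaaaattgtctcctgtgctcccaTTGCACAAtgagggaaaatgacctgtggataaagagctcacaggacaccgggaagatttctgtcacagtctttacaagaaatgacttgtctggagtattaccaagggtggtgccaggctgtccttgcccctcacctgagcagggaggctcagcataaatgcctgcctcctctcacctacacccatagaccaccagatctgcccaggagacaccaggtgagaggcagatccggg
Counted from the gene start, the capitals run from -182 to -175 in Saa1 and from -183 to -176 in Saa2.

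Saa3 had a level of -3.92 in iHep, 0.10 in PH and -4.54 in MF. It was 1.54-fold higher in iHep than in MF (log2 0.62 ± 0.23), under the threshold, and its sign turned to -0.67 under normexp. It was 24.9-fold higher in PH than in MF and 16.2-fold lower in iHep than in PH, so its gaps to PH were far smaller than those of Saa1 and Saa2. Saa4 had a level of -5.62 in iHep, 3.77 in PH and -6.40 in MF, the last not well above background. It was at least 1.60-fold higher in iHep than in MF, at least 1079.6-fold higher in PH than in MF, and 674-fold lower in iHep than in PH. As a share of its PH reading, the iHep reading was 0.244% for Saa1, 0.0378% for Saa2, 6.17% for Saa3 and 0.149% for Saa4.

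Haptoglobin, encoded by Hp, binds free haemoglobin, and hemopexin, encoded by Hpx, binds free haem; both carry their cargo to receptors for uptake. These genes took opposite sides of MF. Hp had a level of -2.43 in iHep, 6.53 in PH and -0.72 in MF, and its spot read 695, 191664 and 331 before scaling. It was the 1 gene of the 10 for which iHep lay below MF, by 3.29-fold (log2 -1.72 ± 0.20), and it stayed lower under each processing tried, between -1.81 and -1.50. Before scaling, the iHep spot read higher than the MF spot, so this direction rests on the scaling between arrays. Hp was 151-fold higher in PH than in MF and 497-fold lower in iHep than in PH. Hp is also made by neutrophils and macrophages. All 12 macrophage markers measured were at least 2-fold lower in iHep than in MF, and their summed signal, in units of the 75th percentile, was 1.13 in iHep, 106 in PH and 89.5 in MF. Of the 12 neutrophil markers measured, 5, 12 and 6 were above background in iHep, PH and MF, with sums of 14.5, 88.5 and 24.7. Most of the iHep and MF sums came from Csf3r, the receptor for granulocyte colony-stimulating factor, with levels of 3.36 in iHep and 4.56 in MF. Most of the PH sum came from Elane, with a level of 5.07, and Csf3r, with 4.85. S100a9, a defining neutrophil gene, was not above background in iHep or MF, and its PH reading exceeded that of MF by at least 1377-fold. The part of these cells in the Hp readings was not tested.

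Hpx had a level of -0.56 in iHep, 5.85 in PH and -3.56 in MF. Its spot read 2538 in iHep, 120432 in PH and 46.1 in MF. All 3 readings were well above background and clearly apart. Hpx was 7.98-fold higher in iHep than in MF (log2 3.00 ± 0.21), a difference that 2.67% of all genes exceeded, and it ranged from 1.95 to 3.01 over the processings tried. It was 683-fold higher in PH than in MF and 85.6-fold lower in iHep than in PH. In iHep it therefore stood at 1.17% of the PH reading, and its level had covered 31.8% of the log2 distance between MF and PH. The Hpx promoter window is shown because the gene was higher in iHep; it lies at chr7:105600067-105600366 on the minus strand, and the capitals again mark the C/EBP pattern, from -200 to -193.
Hpx: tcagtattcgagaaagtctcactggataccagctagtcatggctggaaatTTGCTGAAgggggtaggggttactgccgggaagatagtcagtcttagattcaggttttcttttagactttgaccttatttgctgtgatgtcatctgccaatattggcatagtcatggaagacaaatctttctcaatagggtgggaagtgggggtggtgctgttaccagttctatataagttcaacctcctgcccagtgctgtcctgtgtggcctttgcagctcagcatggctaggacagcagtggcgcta

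Orm1 and Orm2 encode alpha-1-acid glycoproteins, lipocalins that carry small lipophilic compounds in plasma, and lie beside Orm3 on chromosome 4. Orm1 had a level of -4.98 in iHep, 4.85 in PH and -6.75 in MF, where it was not well above background. It was at least 2.50-fold higher in iHep than in MF, a bound that normexp also took to 0.00, and in PH it exceeded MF by at least 2283-fold. It was 914-fold lower in iHep than in PH. Orm2 had a level of -6.04 in iHep, 4.07 in PH and -7.67 in MF, again not well above background. Its iHep spot read 57.2, below the brightest of the 153 negative control spots on that array, 64.6, although above their 95th percentile of 7.18. Orm2 was at least 1.20-fold higher in iHep than in MF, at least 1325-fold higher in PH than in MF and 1099.9-fold lower in iHep than in PH. Orm3, the neighbouring copy, had levels of -5.44 in iHep, 4.22 in PH and -7.22 in MF, not well above background in MF, and was at least 1.81-fold higher in iHep than in MF, a bound of 0.00 under normexp. Its promoter matched that of Orm2 at 86.6% of aligned positions. Whether the Orm probes read each other's transcripts was not tested.

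Lcn2 encodes lipocalin 2, which withholds iron from bacteria by binding their siderophores. It is made by hepatocytes in the acute phase, and also by epithelia, fat and maturing neutrophils. Lcn2 had a level of 1.92 in iHep, 3.28 in PH and -2.21 in MF. Its spot read 14238 in iHep, 20171 in PH and 118 in MF. The iHep reading thus stood near that of PH and far from that of MF, unlike every other gene of the 10. Lcn2 was 17.5-fold higher in iHep than in MF (log2 4.13 ± 0.20), a difference that 1.04% of all genes exceeded, and it was the 1 gene of the 10 past 8-fold there, against 2.67% of all genes. It was 44.8-fold higher in PH than in MF and 2.55-fold lower in iHep than in PH (log2 -1.35 ± 0.20). In iHep it stood at 39.2% of the PH reading and had covered 75.3% of the log2 distance between MF and PH. Over the processings tried it ranged from 3.65 to 4.15 for iHep over MF and from -1.36 to -1.17 for iHep over PH.

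Markers of the other cells that make Lcn2 moved in different directions between iHep and MF. Of the 6 neutrophil markers compared, 1 was at least 2-fold higher and 4 lower in iHep than in MF. Elane, neutrophil elastase, was 5.82-fold higher, and Mpo, myeloperoxidase, was 1.68-fold higher, under the threshold. S100a8, a calcium-binding protein of neutrophil cytosol, was 7.88-fold lower in iHep than in MF and Camp, a granule peptide, 2.49-fold lower, while Ngp, a granule protein, was above background in neither. The 9 epithelial markers summed to 16.9 in iHep, 44.3 in PH and 1.31 in MF, with 7, 9 and 6 above background. Most of the iHep sum came from Krt18, a simple epithelial keratin, at a level of 3.66. Of 8 compared, 4 passed 2-fold upward in iHep over MF, among them Cdh1, at least 36.3-fold, and Krt8, 33.1-fold. The 2 lower were Krt7 and Cldn3, while Epcam was not above background in iHep or MF. In PH over MF 6 of 9 were higher and 1 lower. Cdh1 was at least 253-fold higher there, Krt8 27.5-fold and Krt18 24.9-fold. The rise of Cdh1, Krt8 and Krt18 over MF was thus shared by iHep and PH. Krt19 was 5.14-fold higher than MF in iHep and 1.02-fold higher in PH. The 10 adipocyte markers summed to 30.6 in iHep, 9.73 in PH and 13.7 in MF, with 7, 10 and 5 above background. Most of the iHep sum came from Fabp4, a fatty acid carrier, at a level of 4.45. Of 7 compared, 3 passed 2-fold upward in iHep over MF, Fabp4, Pparg and Cidec, and 0 were lower, while Plin1 was not above background in iHep or MF. The part of epithelial or fat cells in the Lcn2 reading was not tested. The Lcn2 promoter window, shown because this gene came closest to PH, lies at chr2:32387690-32387989 on the minus strand, and its C/EBP pattern, in capitals, runs from -216 to -209.
Lcn2: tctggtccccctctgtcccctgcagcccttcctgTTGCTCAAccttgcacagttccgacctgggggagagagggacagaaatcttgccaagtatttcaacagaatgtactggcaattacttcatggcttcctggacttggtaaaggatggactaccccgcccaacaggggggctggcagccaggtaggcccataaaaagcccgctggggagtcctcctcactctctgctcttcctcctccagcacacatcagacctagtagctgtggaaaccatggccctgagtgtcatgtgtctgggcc

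Apcs encodes serum amyloid P component, a pentraxin that binds amyloid and microbial surfaces and is a main acute phase pentraxin of mice. Apcs had a level of -5.41 in iHep, -1.53 in PH and -8.23 in MF, where it was not well above background. It was at least 1.86-fold higher in iHep than in MF, at least 27.3-fold higher in PH than in MF and 14.7-fold lower in iHep than in PH. Its MF spot read 1.81, about the same as the software's error of 1.80, so no difference from MF beyond a bound could be formed. The bound for PH over MF, 4.77 on the log2 scale, was 1.78 under normexp. Crp, the pentraxin best known as the human acute phase marker, was above background in PH alone, at least 256-fold higher than in MF. Ptx3, a pentraxin made by stromal and myeloid cells, ran the other way and was above background in MF alone, at least 472-fold lower in iHep and at least 349.6-fold lower in PH. The Apcs promoter window is shown for contrast, because it holds no C/EBP pattern; it lies at chr1:172895005-172895304 on the minus strand. Its capitals mark a STAT pattern, TTCNNNGAA, from -244 to -236, and the core CTGGGAA of the interleukin 6 element on the other strand, from -129 to -123 and from -52 to -46.
Apcs: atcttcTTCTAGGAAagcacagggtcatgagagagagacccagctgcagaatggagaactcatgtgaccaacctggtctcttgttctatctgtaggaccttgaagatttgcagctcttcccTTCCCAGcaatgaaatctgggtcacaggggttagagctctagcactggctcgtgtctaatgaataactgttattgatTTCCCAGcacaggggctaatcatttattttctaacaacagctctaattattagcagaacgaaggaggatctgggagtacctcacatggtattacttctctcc

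**Figure D2:**
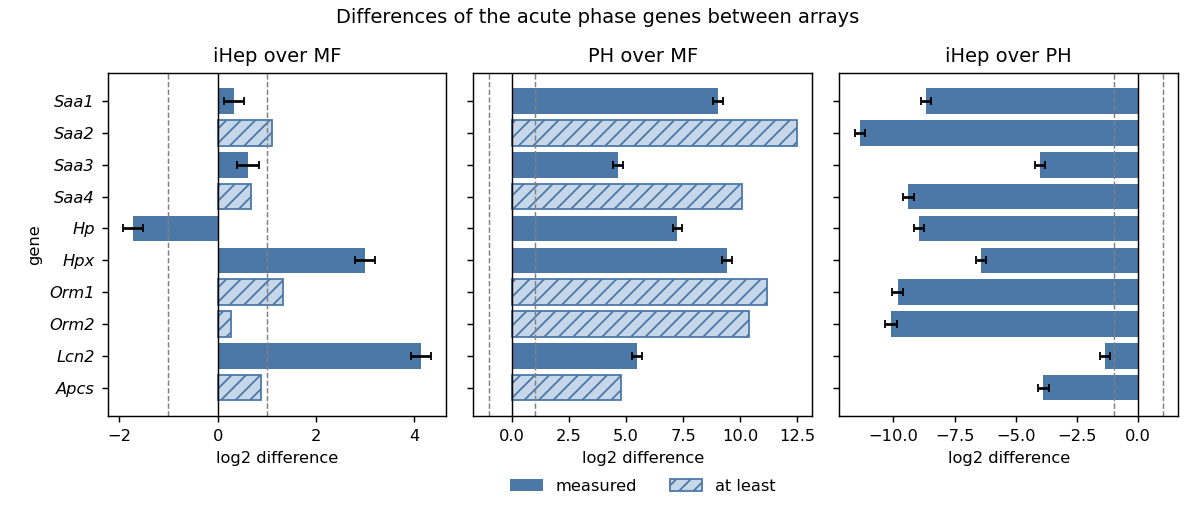
log2 difference of each gene (x axis) in 3 comparisons (left, iHep over MF; middle, PH over MF; right, iHep over PH), with error bars for the software's error of the pair of spots, hatched bars for bounds and dashed lines at 2-fold. Hp is the one bar below 0 for iHep over MF, all 10 lie above 4 for PH over MF, and Lcn2 is the shortest bar for iHep over PH.

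RefSeq promoter windows were found for 8 of the 10 genes, and Orm1 and Hp were not in the table. The C/EBP pattern TTNNGCAA, searched on both strands, occurred in 7 of the 8, against 10.8% of 32851 windows of the same length. Saa1 and Saa2 count as 2 of the 7, though their windows are 95.3% identical and hold the same match, TTGCACAA. The 7 also included Saa3, Saa4 with 2 matches, and Orm2, where the match TTGCGCAA reads as the pattern on both strands. The STAT pattern and the interleukin 6 core occurred in Apcs alone, against 8.30% and 11.1% of all windows. An NF-kB pattern and the FOXA pattern TGTTTAC occurred in none of the 8, against 1.63% and 3.65%. The GATA pattern AGATAA occurred in Orm2 and Saa3, against 11.2%, and the TATA pattern TATAAA in Orm2, against 13.6%. Where 2 patterns overlap, each was counted. The 7 genes with the C/EBP pattern included Lcn2 and Hpx, past 2-fold in iHep over MF, and also Saa1 and Saa3, under it. A match of letters describes the window and is not a measured binding site.

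The 10 genes together summed to 5.11 in iHep, 401 in PH and 1.20 in MF, in units of the 75th percentile, and Lcn2 made up most of the iHep sum with 3.80. Their median log2 difference was 1.45 for iHep over MF, or 0.79 with bounds in place of dim readings, against 0.09 and 0.00 over all genes; under normexp it was -1.20. The median was 9.22 for PH over MF, against 0.12 over all genes, and -8.82 for iHep over PH, against -0.30. The genes that exceeded MF by 8-fold or more in PH numbered 1917, the 10 genes among them. Of the 1917, 32.5% also exceeded MF by 2-fold in iHep, and 4 of the 10 did. Measured in iHep within 4-fold of PH, or above it, were 11.8% of the 1917 and 1 of the 10, Lcn2. These shares of the 10 lie near the background.

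**Figure D3:**
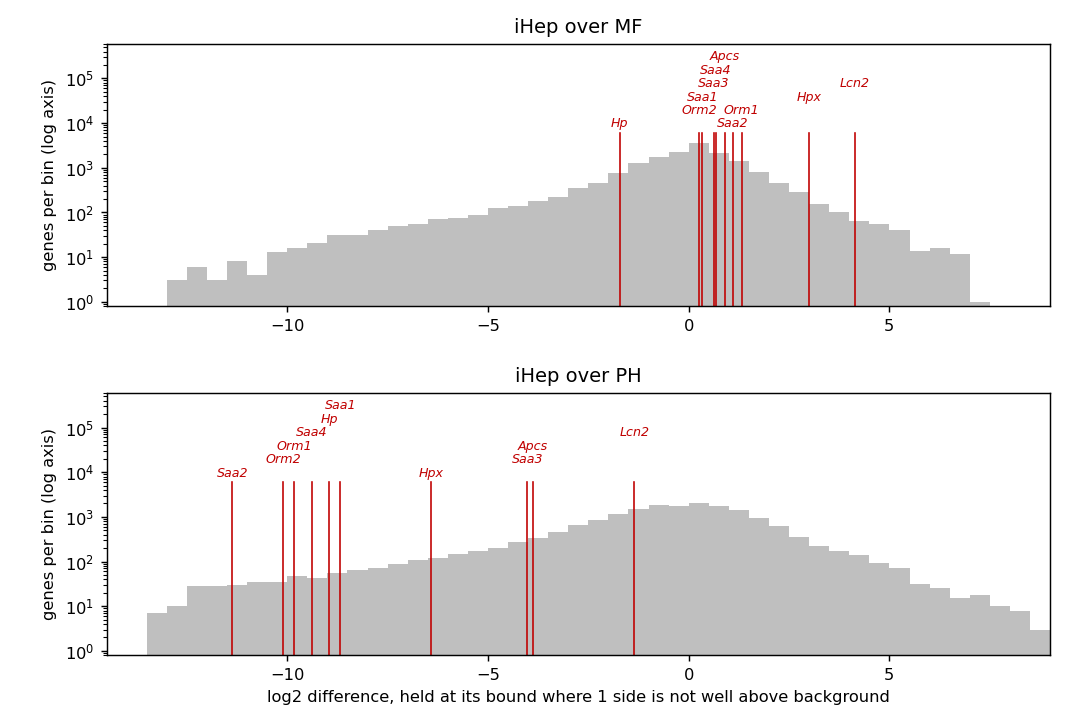
Number of named genes (y axis, log scale) by log2 difference (x axis, held at the bound where 1 side was not well above background) for iHep over MF and iHep over PH, with red lines for the 10 genes. For iHep over MF most of the red lines stand within the bulk of the genes, with Hpx and Lcn2 to the right and Hp to the left, while for iHep over PH all but Lcn2 stand in the left tail.

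Genes whose readings ran most like each of the 5 genes above background on all arrays were found by the Euclidean distance between the 3 levels after centring each gene, over 13919 genes. Nearest to Lcn2 were Celsr1, a planar polarity cadherin, at 0.12, C130074G19Rik at 0.17 and Akr1c12, an aldo-keto reductase, at 0.36. Nearest to Hp was Stab2, the scavenger receptor stabilin 2 of sinusoidal endothelium, at 0.09, followed by Nat8f5 at 0.22 and Sds, serine dehydratase, at 0.37. Nearest to Hpx were Aqp8, a water channel, at 0.41, Gm10768 at 0.62 and Ushbp1 at 0.71. Saa1 had Aspg at 0.16, Klk1b3 at 0.17 and Prss1, a trypsinogen, at 0.19, and Saa3 had Vangl2 at 0.0058, Enpp2, the lysophospholipase autotaxin, at 0.047 and Kyat1 at 0.065. With 3 arrays such likeness is easily met and only describes these readings.

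Of 33 other positive acute phase genes on the array, which rise in plasma or liver in the response, 28 could be compared in iHep over MF. Among them 6 passed 2-fold upward and 8 downward, against 19.8% and 23.5% of all genes. The list's median of 0.19 turned to -1.41 with normexp. Cp, the ferroxidase ceruloplasmin, was 17.2-fold higher in iHep than in MF, close to the figure for Lcn2, and 8.63-fold lower than in PH. Lrg1, a leucine-rich glycoprotein of plasma, was 4.87-fold higher, though below 2-fold under normexp, and Lbp, which hands lipopolysaccharide to its receptor, 3.30-fold higher. C3, the central complement protein, was 1.04-fold higher. Serping1, the C1 inhibitor, was 61.3-fold lower in iHep than in MF, Serpina3n at least 26.8-fold lower, and Fga, a fibrinogen chain, 5.92-fold lower. The metallothioneins Mt1 and Mt2 were 2.68-fold and 3.12-fold lower, and both were under 2-fold with quantile normalization. In iHep over PH 29 of 32 were lower and 1 was higher, Il1rn, the interleukin 1 receptor antagonist, by 2.40-fold, which was under 2-fold with normexp. The iron regulator Hamp was 4705-fold lower in iHep than in PH.

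Negative acute phase genes are those whose products fall in plasma during the response. The 3 arrays compare kinds of cells, not cells before and after an acute phase stimulus, so the response itself was not measured. In PH over MF 10 of 10 were at least 2-fold higher, and in iHep over PH 10 of 10 were lower. In iHep over MF 2 of 7 were higher and 1 lower, and the median of 0.45 turned to -1.23 with normexp. Rbp4, the plasma retinol carrier and itself a lipocalin, was 32.1-fold higher and Fetub 4.05-fold higher, while Igf1 was 78.4-fold lower by the brightest of its 4 probes, which ranged from -7.10 to -2.91 on the log2 scale. Alb, albumin, was 1.37-fold higher in iHep than in MF and 2743-fold lower than in PH, beside 1.27-fold and 409-fold for Saa1. Of 10 other lipocalins compared in iHep over MF, Rbp4 and 2 others were higher and 1 was lower, Apod, by 33.7-fold. Ambp, the precursor of the haem-binding lipocalin alpha-1-microglobulin, was 1.72-fold lower in iHep than in MF and 6284-fold lower than in PH.

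**Figure D4:**
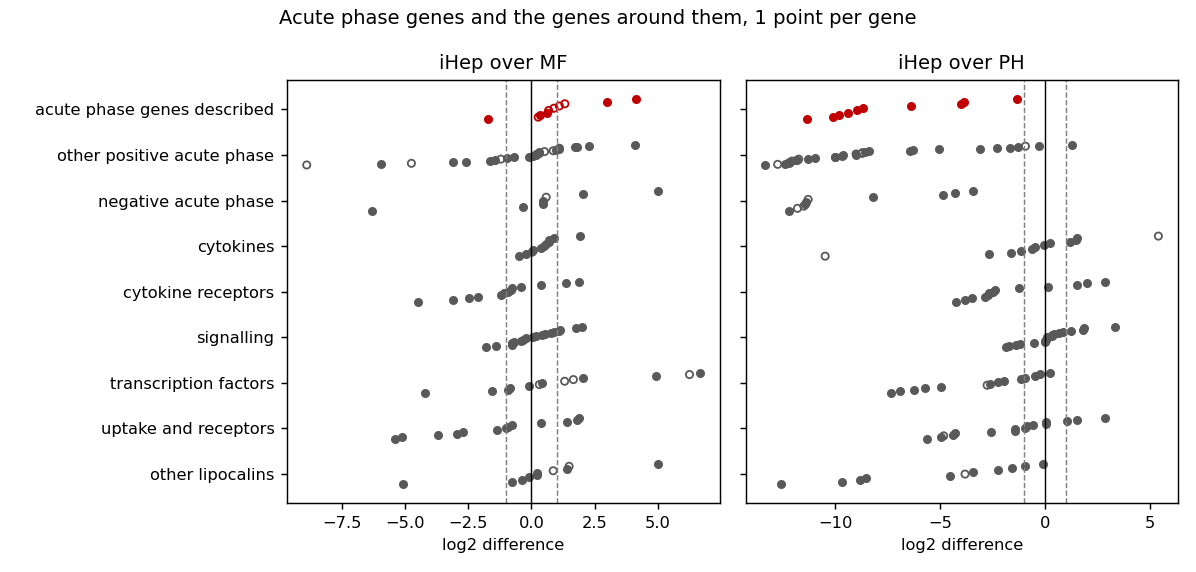
log2 difference (x axis) of each gene, 1 point per gene, by list (rows) for iHep over MF and iHep over PH, with open circles for bounds, dashed lines at 2-fold and the 10 acute phase genes in red. Most lists straddle 0 for iHep over MF, while for iHep over PH the plasma protein lists lie to the left and the cytokine and signalling lists around 0.

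Transcripts of the ligands, receptors, signalling proteins and transcription factors tied to the acute phase response were read from further lists. Whether they drive the 10 genes in these cells was not tested. Il6, the main inducing cytokine, had levels of 0.64 in iHep, 0.42 in PH and 0.05 in MF, within 2-fold of each other. Il1b was above background in PH alone, at least 710-fold higher than in MF. Il1a was 3.81-fold higher in iHep than in MF, the 1 cytokine of 11 past 2-fold, though under it with normexp. Among 13 receptors 6 were at least 2-fold lower in iHep than in MF and 2 higher, against 23.5% and 19.8% of all genes. Compared with PH, 9 of 13 were lower and 3 higher, against 36.0% and 23.2%. Il6st, the shared signalling chain of the interleukin 6 family, was 8.57-fold lower in iHep than in MF and 5.23-fold lower than in PH. Il1r1, the signalling receptor for interleukin 1, was 5.52-fold and 6.33-fold lower. Il6ra, the interleukin 6 binding chain, was 1.72-fold lower than in MF and 7.44-fold lower than in PH. Tlr2, a receptor for bacterial lipoproteins, was 3.68-fold higher in iHep than in MF and 2.82-fold higher than in PH.

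Of 19 signalling genes, 4 were at least 2-fold higher and 2 lower in iHep than in MF, against 19.8% and 23.5% of all genes. Stat3, the transcription factor that interleukin 6 activates, was 3.45-fold lower in iHep than in MF and 3.31-fold lower than in PH. Nfkb2, an NF-kB subunit, was 4.01-fold higher in iHep than in MF and 10.01-fold higher than in PH. Nfkb1 was 3.36-fold higher than in MF by its brighter probe and 0.32 higher on the log2 scale by the other. Socs3, a feedback inhibitor induced by STAT3, and Nfkbiz, an NF-kB cofactor for Lcn2, were within 2-fold of MF. Among 13 transcription factors compared 6 were higher in iHep than in MF and 2 lower, against the same 19.8% and 23.5%. Hnf4a was 101-fold higher, Foxa2 30.5-fold higher and Gata4 4.10-fold higher. Cebpa, the C/EBP factor of mature hepatocytes, was 18.4-fold lower in iHep than in MF and 166-fold lower than in PH. Cebpb, the C/EBP factor tied to interleukin 6, was 2.91-fold lower than in MF and 2.21-fold lower than in PH, and both differences were under 2-fold with quantile normalization. Cebpd, the related factor induced in the acute phase, was 1.78-fold and 1.40-fold lower, and Nr3c1, the glucocorticoid receptor, was within 2-fold throughout.

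Proteins that take up or sense the plasma proteins made up a further list. Of 15 compared in iHep over MF, 6 were at least 2-fold lower and 3 higher, against 23.5% and 19.8% of all genes. The median of the list was -0.93. Lrp1, the receptor for hemopexin bound to haem, was 13.0-fold lower in iHep than in MF, and Hmox1, the oxygenase that breaks haem down, 7.74-fold lower. Slc22a17, a cell surface receptor for lipocalin 2, was 34.8-fold lower in iHep than in MF and 30.9-fold lower than in PH. Lrp2, megalin, which also binds lipocalin 2, was 41.98-fold lower than in MF. Scarb1, a receptor for high-density lipoprotein, was 3.47-fold higher in iHep than in MF. Cd163, the macrophage receptor for haptoglobin bound to haemoglobin, was 21.0-fold lower in iHep than in PH, and Fpr2, a receptor for serum amyloid A, at least 28.7-fold lower.

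Markers of other cells also gave signal on the PH array, which set the upper end for the 10 genes. The 8 red cell markers measured summed to 0.345 in iHep, 119 in PH and 0.326 in MF, and the 10 acinar markers to 1.59, 488 and 0.587. In PH over MF all 10 acinar markers passed 2-fold upward, as did 10 of the 12 neutrophil markers, where 6 of the 12 differences are bounds. Under normexp 6 of the 12 neutrophil markers passed it upward, and their median fell from 4.37 to 0.95. Of the 12 macrophage markers 3 passed 2-fold upward and 2 downward, with a median of -0.15. The part of these cells in the Saa3, Hp and Lcn2 readings of PH was not tested.

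**Figure D5:**
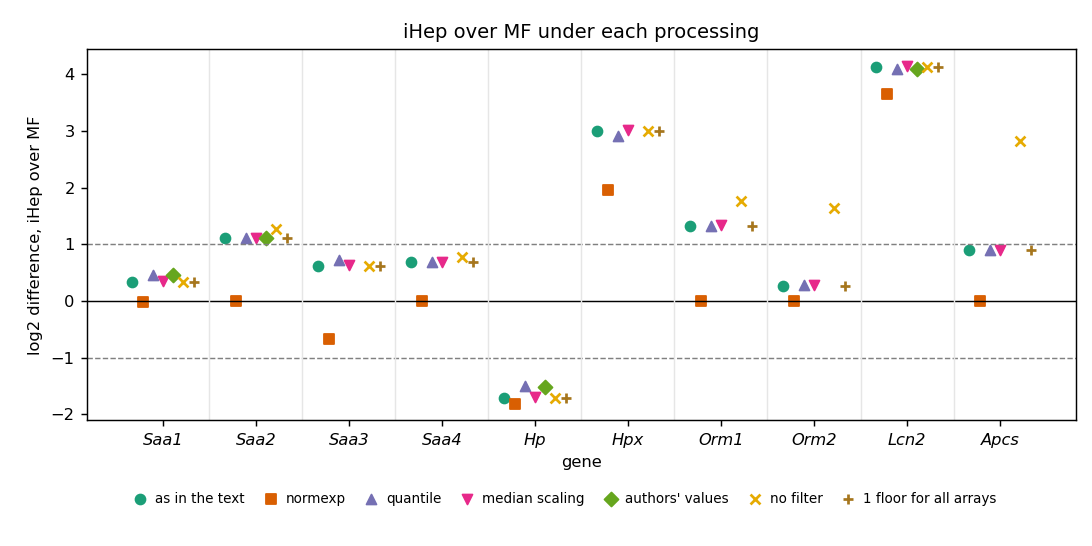
log2 difference of iHep over MF (y axis) for each gene (x axis) under each processing, with dashed lines at 2-fold and values held at their bound where 1 side was not well above background, except with no filter. Lcn2, Hpx and Hp keep their side of the lines throughout, Saa2 and Orm1 drop to 0 under normexp, and Orm2 and Apcs pass 2-fold with no filter.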

How the data were processed

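The deposited scanner output gives each spot's intensity, linear and not normalized between arrays. Per the file headers it comes from Agilent Feature Extraction 11.0.1.1 (the submitters' processing notes name 9.1) and is background-subtracted and detrended, with the array design annotated on mm9. The authors' deposited value table holds log2 values for 26049 probes, with scale and centring unstated; its medians are 7.01 for iHep, 7.07 for PH and 7.02 for MF, it correlates with the scanner values at 0.9982, 0.9943 and 0.9974, and it lists 4 of the 10 genes (Saa1, Saa2, Hp and Lcn2).

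Groups came from sample titles. Control spots were dropped, and so were non-uniform spots and population outliers (230, 383 and 190 of 43020 on iHep, PH and MF), and 0 were saturated. Replicate spots were averaged to 39429 probes, of which 27228 were named by unversioned accession through RefSeq's GRCm38.p6 gene table. A gene is its brightest probe. Of 221 genes in 17 lists, 216 were measured. The 10 genes and the lists were chosen with earlier results of these data known.

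Named genes are the 10, a listed set of regulators and related proteins, up to 4 genes per list and direction with the greatest differences, and the 3 nearest genes in pattern. Csf3r, Krt18, Fabp4, Epcam, Plin1 and Fn1 are not covered by it and were picked once their values were known. Alternatives were normexp (limma 3.58.1, R 4.3.3, offset 50, on median signals because the files hold no mean signal), quantile normalization, median scaling, the authors' values, 2 filters, 2 probe choices, 2 thresholds and 1 common floor. Calculations ran in Python 3.11.15 and were tested on simulated data. The number of arrays, 1 per group, limits the precision.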

Additional observations from a re-analysis of the deposited data

How the results depend on the processing

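With 1 array per group no processing adds a replicate, and no replicate could be left out. No paired analysis was possible because each group has 1 array. For iHep over MF, the count of genes at least 2-fold higher, 4 of 10, was 2 under normexp, 2 of the 4 genes in the authors' table, 2 of the 5 genes above background on all arrays, 2 at 4-fold, 7 at 1.5-fold and 6 with no filter on dim probes, where Orm2 and Apcs pass as read. The count lower, 1, was 0 at 4-fold. The median of 1.45 became -1.20 under normexp (0.00 with bounds), 0.87 in the authors' table and 0.62 over the 5 genes. For PH over MF the count of 10 higher was 4 of 4 in the authors' table and 5 of 5 with the strict filter, and the median of 9.22 was 7.24 under normexp, 8.82 with quantile normalization, 7.83 in the authors' table and 7.24 with the strict filter. For iHep over PH the count of 10 lower was 4 of 4 and 5 of 5, and the median of -8.82 was -8.61 under normexp, -8.37 with quantile normalization, -8.37 in the authors' table and -6.42 with the strict filter. The smaller counts in the authors' table and under the strict filter come with fewer genes; the cause under normexp was not tested.

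Normexp moved the median of all genes by -0.73 for iHep over MF, where 27.6% of differing genes were higher, against 45.8% in the text. For PH over MF the share higher was 54.9% in the text, 38.9% under normexp (shift -0.63), 43.2% with quantile normalization (-0.31) and 42.01% in the authors' table (-0.32). For iHep over PH it was 39.2% in the text, 54.9% with quantile normalization (0.51) and 55.8% in the authors' table (0.51). Saa1 for iHep over MF read -0.03 under normexp. Among the named list genes, 3 differences past 2-fold changed direction under an alternative, those of Il1rap for PH over MF (5.62, and -0.59 in the authors' table) and for iHep over PH, and that of Cidec for iHep over PH. Signal over background limits Saa2, Saa4, Orm1, Orm2 and Apcs in MF.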
